A study of Cavia porcellus with 18 samples.

Results

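Pol II PS5 peaks at start sites were the intervals of the deposited Pol II PS5 peak list whose nearest edge lay within 1000 bases of any of 19847 transcription start sites listed with the CG sites. The members were chosen by the measured positions of Pol II PS5 peaks and by the list of start sites. A start site is on that list because at least 1 CG site measured in both bisulfite assays was listed with it, and all these sites lie in H3K4me1 peaks, so H3K4me1 and bisulfite coverage entered the choice through the list. Peak scores and methylation levels did not enter it. Width entered only because distance was measured from the peak edge, which lets a wide peak reach a start site from a little farther. The rule gave 4114 of 67423 peaks, which is 6.10% of the list (95% Wilson interval 5.92 to 6.28), on 229 scaffolds. They are called start-site peaks here, and the remaining 63309 are called other peaks. The tissue was hippocampus from 3 wild type male guinea pigs aged 12 weeks. Pol II PS5 ChIP-seq (antibody 4H8, Abcam ab5408), H3K4me1 ChIP-seq and H3K4me1 ChIP followed by bisulfite conversion (both with Abcam ab8895) had 3 libraries each. Reduced representation bisulfite sequencing (RRBS) of DNA digested with MspI and ApeKI had 3 libraries read at 50 bases and 3 at 100 bases. A further 3 digest libraries without bisulfite were not analysed here. The authors deposited 1 value per assay for the animals together, so no spread between animals exists for any value, and no p-value is given. Intervals in parentheses after shares are 95% Wilson intervals that cover counting error only.

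RNA polymerase II carries a long C-terminal tail, and phosphorylation of its serine 5 accompanies initiation and the first steps of elongation, so that antibodies against this form mark the beginnings of transcribed genes. H3K4me1, monomethylation of lysine 4 of histone H3, is known from enhancers and from the flanks of promoters, while the nucleosomes next to an active start site usually carry the trimethylated form. Methylation of cytosine in CG pairs is low at most CG-rich promoters and high across much of the remaining mammalian genome. The deposited lists pair no gene symbols with the gene identifiers, so peaks are named by scaffold and position. The files' genome build is not given in the sources used here. In all positions below the count takes the first base of a scaffold as 1, on the assumption that the peak lists begin at 0 as bedGraph files do.

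Of the 19847 start sites, 4127 had a Pol II PS5 peak within 1000 bases, which is 20.8% of all that were listed (20.2 to 21.4). There were 3812 start sites with 1 peak in reach, 302 with 2 and 13 with 3. Assigned to the start site nearest to its midpoint, each of 3833 start sites held at least 1 start-site peak, and 267 of them held 2 and 7 held 3. Among the peaks, 312 had more than 1 start site in reach, or 7.58% (6.81 to 8.43), and 226 had start sites on both strands. Start sites were covered by the peak itself in 1657 cases, 40.3% of start-site peaks (38.8 to 41.8). Only 5 start-site peaks lay on chrM, the mitochondrial chromosome, which carried 22 listed start sites.

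Start-site peaks sat upstream of the start site more often than downstream. The offset is the distance of the peak midpoint from the nearest start site in the direction of transcription, negative upstream. Its median was -201.75 bases, with quartiles of -462.25 and -3.5 and a range of -1516.5 to 1472.5. The midpoint was upstream in 3097 peaks, 75.3% (73.9 to 76.6), and downstream in 1016, 24.7% (23.4 to 26.0). It fell within 250 bases of the start site in 1872 peaks, 45.5% (44.0 to 47.0). More than 500 bases upstream lay 936 peaks, 22.8% (21.5 to 24.1), and more than 500 bases downstream 254 peaks, 6.17% (5.48 to 6.95). The lean upstream was of similar size on both strands, with a median of -192.25 bases for 2102 peaks at start sites of the plus strand and -209.5 bases for 2012 peaks at those of the minus strand. The rule limits these offsets to about the window plus the distance from the peak's edge to its midpoint.

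**Figure D1:**
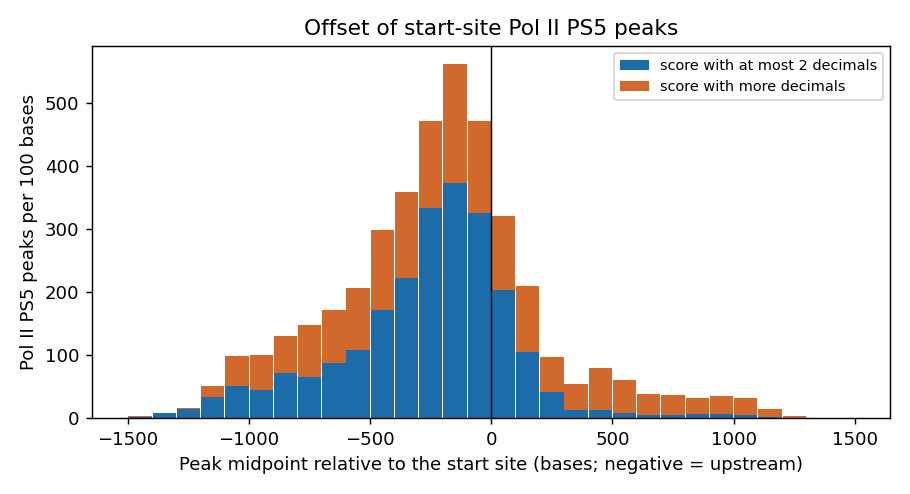
Number of start-site Pol II PS5 peaks (vertical axis, peaks per 100 bases) by strand-aware distance of the peak midpoint from the nearest start site (horizontal axis, bases, negative upstream), split by the number of decimals of the deposited score. Bars pile up just upstream of the start site, where the median is -201.75 bases, and peaks beyond 250 bases downstream are mainly those with more than 2 decimals.

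At the 267 start sites with exactly 2 start-site peaks assigned, the peaks usually stood on either side. In 164 pairs, 61.4% (55.5 to 67.1), 1 midpoint was upstream and the other downstream, in 92 pairs both were upstream, and in 11 both were downstream. The midpoints of a pair were 624.5 bases apart in the median, with a median offset of -515 bases for the upstream peak and 103 bases for the downstream peak. Where several start sites were in reach of a peak, the nearest was used, which by itself makes the offset smaller.

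Just inside the limit of 1000 bases lay a peak on scaffold_286 from 310683 to 310944 with a score of 4.03596, 1 on scaffold_4 from 11458343 to 11458606 with a score of 7.8, and 1 on scaffold_27 from 3767475 to 3767666 with a score of 6.27, at 1000, 997 and 995 bases from a start site. Just outside lay a peak on scaffold_168 from 1356767 to 1357039 with a score of 6.42, 1 on scaffold_19 from 26936046 to 26936357 with a score of 3.10969, and 1 on scaffold_42 from 1354419 to 1355226 with a score of 9.19, at 1002, 1002 and 1004 bases. All 6 lay wholly inside an H3K4me1 peak.

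The deposited score column holds 2 number formats. Scores with at most 2 decimals ran from 2.3 to 1149.38 over the whole list, and scores with more decimals from 1.34342 to 33.4157. What separates the formats is not stated in the files, and whether they are on the same scale was not tested, so scores are compared within a format. The format with at most 2 decimals was found in 2329 start-site peaks, 56.6% (55.1 to 58.1), and in 5704 other peaks, 9.01% (8.79 to 9.24), where 11.9% of the whole list had it. Over both formats together the median score was 5.08 in start-site peaks and 3.36 in other peaks, a ratio of 1.51. Within the format with at most 2 decimals the medians were 6.68 in start-site peaks and 7.05 in other peaks, a ratio of 0.948. Within the other format they were 3.19 in start-site peaks and 3.25 in other peaks, a ratio of 0.980. The higher pooled median of start-site peaks thus came with their larger share of 1 format and was absent inside each.

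Other peaks also reached farther up the scale. With at most 2 decimals, the 95th percentile of the score was 11.7 in start-site peaks and 20.4 in other peaks, and the highest values were 172.9 in start-site peaks and 1149.38 in other peaks. The 172.9 was on chrM, and the highest start-site score elsewhere was 45.71. The format with at most 2 decimals was commonest just upstream of the start site. It made up 69.0% of the 1289 peaks centred 0 to 250 bases upstream, 61.7% of the 873 centred 250 to 500 bases upstream and 57.1% of the 581 centred 0 to 250 bases downstream. It made up 50.9% of the 450 centred 500 to 750 bases upstream, against 12.8% of the 117 centred 500 to 750 bases downstream. Over 750 bases away it made up 52.9% of the 486 upstream and 17.5% of the 137 downstream. The score itself barely followed the offset, with medians of 6.27 to 6.75 across the 8 offset classes in that format and 3.11 to 3.27 in the other.

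Start-site peaks were wider than other peaks. Their median width was 364 bases (quartiles 236 and 551), against 255 bases in other peaks (quartiles 199 and 372). The difference was large in the format with at most 2 decimals, where the median was 467 bases in start-site peaks and 261 bases in other peaks, and small in the format with more decimals, with 269 bases in start-site peaks and 255 bases in other peaks. With at most 2 decimals many other peaks shared a width of 192 bases, which was both their 5th percentile and their lower quartile. In start-site peaks these were 192 and 308 bases. What sets the common width was not tested. Peaks that covered the start site had a median width of 497 bases, against 289 bases for those that did not, and covering a point is itself more likely for a wide peak. Width and score went together within the format with at most 2 decimals. From the narrowest to the widest class of about equal size, the median score of start-site peaks was 6.11, 6.55, 6.88 and 7.26, and the median offset stayed between -198.25 and -224 bases.

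**Figure D2:**
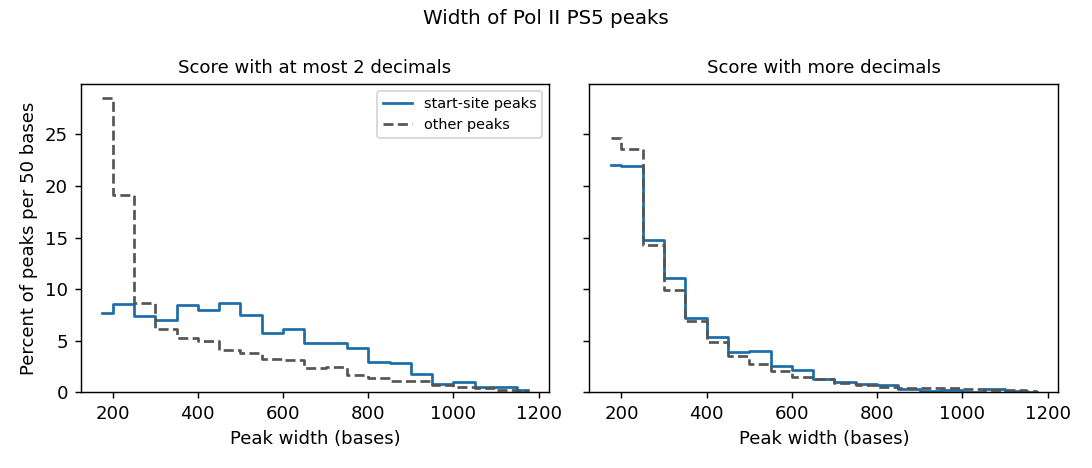
Width of Pol II PS5 peaks (horizontal axis, bases, drawn from 150 to 1200) as percent of the peaks of each set per 50 bases (vertical axis), for scores with at most 2 decimals (left) and with more (right). With at most 2 decimals start-site peaks spread around their median of 467 bases while other peaks pile up at the narrow end, and with more decimals the lines nearly coincide.

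The 10 highest scores among start-site peaks ran from 26.6 to 172.9. The highest, 172.9, belonged to a peak on chrM from 15752 to 16614, centred at an offset of -739 bases from a start site on the minus strand. What this mitochondrial signal reflects was not tested. On scaffold_669 a peak from 27311 to 27502 had a score of 45.71, and on scaffold_14 a peak from 11264262 to 11264453 had 40.44. Both were 192 bases wide. Scaffold_23 held a pair, 1 from 2056743 to 2057291 with a score of 39.84 and 1 from 2044137 to 2044903 with a score of 39.21. Each covered a start site of its own. Scaffold_3088 held a further pair, 1 from 1733 to 3251 with a score of 37.08 and 1 from 210 to 797 with a score of 28.13. The remaining members of the 10 were on scaffold_32 from 19427023 to 19427835, with a score of 29.19, on scaffold_407 from 6395 to 7007, with 28.85, and on scaffold_3 from 62227565 to 62228100, with 26.6. Of the 10, 4 were centred upstream of the start site, and 2, those on scaffold_14 and the first on scaffold_23, met no H3K4me1 peak.

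H3K4me1 lay over or beside nearly every start-site peak. At least 1 base was shared with an H3K4me1 peak in 3873 start-site peaks, 94.1% (93.4 to 94.8), and in 37104 other peaks, 58.6% (58.2 to 59.0). The share over all Pol II PS5 peaks was 60.8%. The list of start sites favours places with H3K4me1, since each start site is listed with a CG site in an H3K4me1 peak, near or far. Among peaks with no such site within 5000 bases, 428 of 490 start-site peaks overlapped H3K4me1, 87.3% (84.11 to 90.003), and 29457 of 53501 other peaks, 55.1% (54.6 to 55.5). Among those with one, the shares were 95.1% of 3624 start-site peaks and 78.0% of 9808 other peaks. Wholly inside an H3K4me1 peak lay 77.0% of start-site peaks and 46.8% of other peaks, and partly inside 17.2% of start-site peaks and 11.8% of other peaks. Both score formats showed it, with 95.4% of start-site peaks and 82.3% of other peaks overlapping in the format with at most 2 decimals, and 92.5% of start-site peaks and 56.3% of other peaks in the format with more. The H3K4me1 peak met, counted once for each Pol II PS5 peak that met it, was wider at start sites. Its median width was 5922 bases at start-site peaks and 3809 bases at other peaks. Over all 327682 H3K4me1 peaks, each counted once, the median was 1785. The part of this width in the overlap was not tested. H3K4me1 scores too lie on 2 scales, and the high one runs from 42 upward in steps of 0.5. Of the start-site peaks that met an H3K4me1 peak, 97.9% met one on the high scale. Of such other peaks 51.1% did. Split by Pol II PS5 score format, the contrast was smaller with at most 2 decimals, at 99.5% of start-site peaks and 85.2% of other peaks. With more decimals the shares were 95.7% and 46.2%. The high scale held 45.8% of the whole H3K4me1 list, each peak counted once.

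Around start-site peaks the H3K4me1 coverage had a dip that was deepest 250 bases downstream of the midpoint. An H3K4me1 peak was present at 89.5% of start-site peaks 1000 bases upstream of the midpoint and at 92.1% 500 bases upstream. Coverage was 86.3% at the midpoint, 83.4% at 250 bases downstream and 93.0% at 1250 bases downstream. Other peaks had the opposite shape, with coverage of 43.5% 1000 bases to the left of the midpoint, 54.6% at the midpoint and 43.2% 1000 bases to the right. The dip was deeper in start-site peaks with at most 2 decimals, at 95.2% 750 bases upstream, 81.3% 250 bases downstream and 96.2% 1500 bases downstream. In those with more decimals coverage was 88.6% at 250 bases upstream, 85.5% at 500 bases downstream and 89.0% at 1250 bases downstream.

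**Figure D3:**
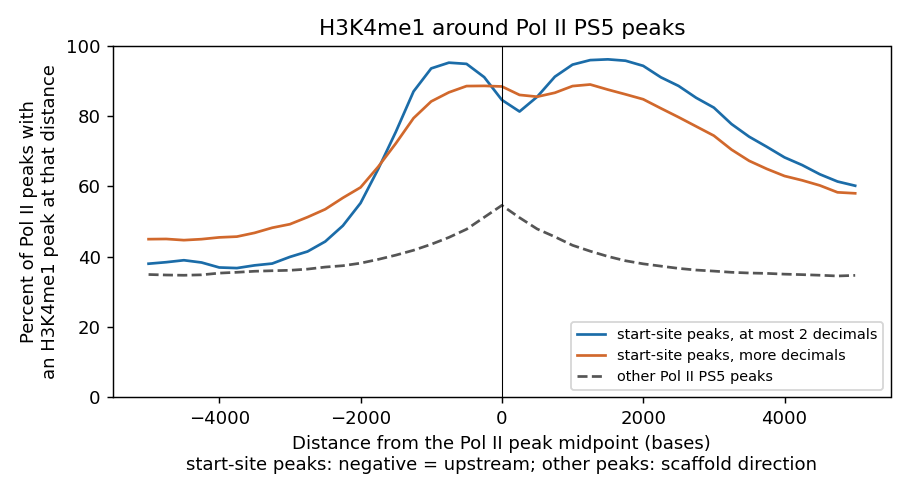
Percent of Pol II PS5 peaks with an H3K4me1 peak (vertical axis) at each distance from the Pol II peak midpoint (horizontal axis, bases, steps of 250). Start-site peaks are oriented by the strand of their start site, with negative values upstream, and show a dip near the midpoint and a longer shoulder downstream, while other peaks, in scaffold direction, are highest at the midpoint at 54.6%.

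Peak by peak, 383 start-site peaks, 9.31% (8.46 to 10.2), had H3K4me1 1000 bases to each side and none at the midpoint, against 1150 other peaks, 1.82% (1.72 to 1.92). Among start-site peaks this held for 12.4% of those with at most 2 decimals and for 5.27% of those with more. Such gaps need H3K4me1 on both sides, which start-site peaks had more often, so the shares are not corrected for that. At least 2 H3K4me1 peaks were overlapped by 147 start-site peaks, 3.57%, and by 164 other peaks, 0.259%. The H3K4me1 peak met by a start-site peak reached a median of 1951 bases upstream of its midpoint and 3380 bases downstream, and reached farther downstream in 2412 of 3873, 62.3% (60.7 to 63.8). At 4000 bases coverage was 40.6% upstream and 66.0% downstream. Where a start-site peak was only partly inside, however, the H3K4me1 peak with the larger overlap was centred on the downstream side in 215 of 706, 30.5% (27.2 to 33.9), and on the upstream side in the others.

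Measured from the start site instead, H3K4me1 covered 82.6% of the 4127 start sites with a Pol II PS5 peak and 63.8% of the 15720 without. With a peak, coverage was 90.7% at 1000 bases upstream and 93.5% at 750 bases downstream. Start sites without a peak showed no such dip, with 66.9% at 1000 bases upstream and 61.4% at 750 bases downstream. Farther upstream the order turned, with 42.02% covered at 5000 bases upstream of start sites with a peak and 53.2% upstream of those without. The selection of listed start sites applies to these values too.

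The 241 start-site peaks that met no H3K4me1 peak, 5.86% of them, were narrower, with a median width of 245 bases. Those partly inside one had a median of 506 bases and those wholly inside 347 bases. Their scores were not lower in the format with at most 2 decimals, where the median was 7.64, against 7.14 in those partly and 6.49 in those wholly inside an H3K4me1 peak. In the format with more decimals the medians were 3.11, 3.40 and 3.18 in the same order.

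CG sites under start-site peaks were little methylated in both assays. Levels are the deposited whole percent of methylated reads per CG site, for sites measured by both assays, which are called shared sites here. In bulk tissue an intermediate level can come from a mixture of cells or of alleles, and these cannot be told apart. There were 1604 shared sites under 516 start-site peaks, 12.5% of these peaks (11.6 to 13.6), and 2109 under 950 other peaks, 1.501% of them (1.41 to 1.60). The mean ChIP-bisulfite level was 8.17% under start-site peaks and 27.9% under other peaks, where all 167387 shared sites averaged 45.1%. The mean RRBS level was 10.96% under start-site peaks and 33.3% under other peaks, where all sites averaged 53.9%. Levels of at most 20% were found by ChIP-bisulfite at 88.8% of sites under start-site peaks (87.1 to 90.2) and at 64.7% under other peaks (62.7 to 66.7), with 47.4% over all sites. By RRBS they were found at 82.9% of sites under start-site peaks (80.9 to 84.6) and at 51.0% under other peaks (48.9 to 53.1), with 27.2% over all sites. Sites of 1 peak are not independent, so these intervals are too narrow. All shared sites lie in H3K4me1 peaks, and the values say nothing of the 241 start-site peaks outside them.

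Counted by peak rather than by site, the pattern was the same. The peak means averaged 7.62% ± 21.9 by ChIP-bisulfite and 8.85% ± 20.7 by RRBS over 516 start-site peaks, against 33.3% ± 40.5 and 39.1% ± 37.0 over 950 other peaks (SD between peaks). Every shared site read 0% in both assays in 328 start-site peaks, 63.6% (59.3 to 67.6), and in 225 other peaks, 23.7% (21.1 to 26.5). A mean RRBS level of 50% or more was found in 36 start-site peaks, 6.98% (5.08 to 9.51), and in 379 other peaks, 39.9% (36.8 to 43.0). With 1 site only were 43.6% of the 516 start-site peaks and 55.9% of the 950 other peaks. The methylation gap was present within each score format. With at most 2 decimals the mean levels by ChIP-bisulfite and RRBS were 7.04% and 9.81% under start-site peaks, and 21.7% and 25.7% under other peaks. With more decimals they were 9.995% and 12.8% under start-site peaks, and 31.7% and 37.8% under other peaks.

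Counted from the peak edge, the low methylation reached past the peak and farther on its downstream side. At 1 to 250 bases from the edge of start-site peaks the mean levels were 9.06% by ChIP-bisulfite and 11.6% by RRBS downstream, and 13.8% and 16.3% upstream. At 250 to 500 bases they were 14.4% and 16.5% downstream, and 20.2% and 24.4% upstream. At 500 to 1000 bases they were 27.1% and 28.4% downstream, and 36.1% and 39.1% upstream. Beyond 1000 bases the order of the sides turned. At 2000 to 5000 bases the levels were 54.7% and 60.4% downstream, and 39.8% and 46.1% upstream. Around other peaks the dip was shallow, with ChIP-bisulfite means between 27.9% under the peak and 47.2% at 1000 to 2000 bases. Measured from start sites with a peak instead, levels within 1000 bases were lower upstream. By ChIP-bisulfite they were 10.1% upstream and 15.6% downstream at 0 to 250 bases, and 8.13% and 10.6% at 250 to 500 bases. At 500 to 1000 bases they were 21.0% and 23.7%. RRBS had the same order.

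**Figure D4:**
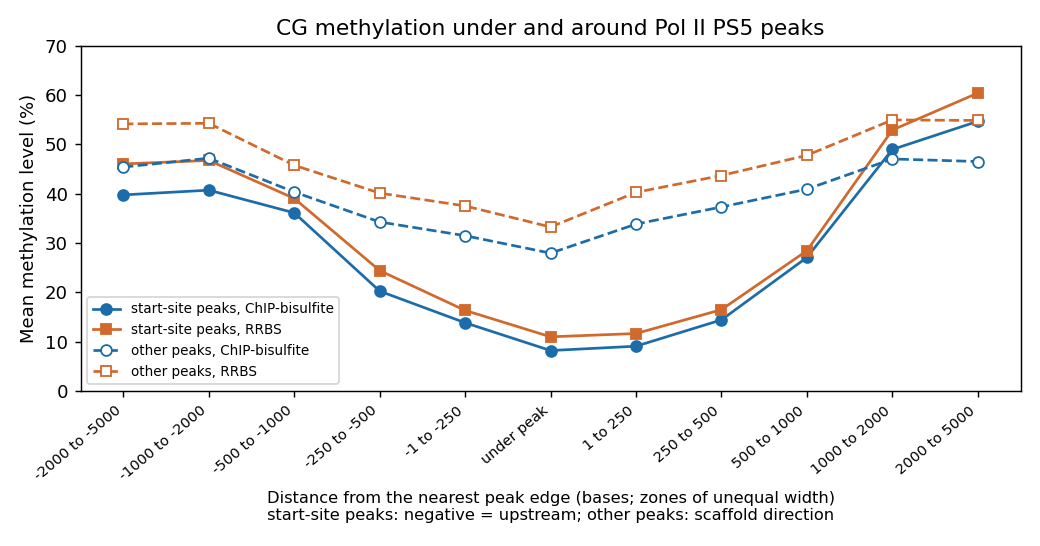
Mean CG methylation (vertical axis, percent) of shared sites under Pol II PS5 peaks and in zones by distance from the nearest peak edge (horizontal axis, zones of unequal width), in each bisulfite assay. Start-site peaks (filled symbols) are lowest under the peak at 8.17% and 10.96% and climb to 54.7% and 60.4% downstream, while other peaks (open symbols) are nowhere below 27.9%.

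A Pol II PS5 peak also went with lower methylation when start sites were compared at the same distance. Within 1000 bases, 8420 sites at start sites with a peak averaged 17.4% by ChIP-bisulfite and 19.9% by RRBS, and 14421 sites at start sites without a peak 28.7% and 33.1%. Part of that came from sites under the peak itself, at 7.34% and 10.4%. Sites at the same start sites but outside the peak averaged 19.5% and 21.9%. At 250 to 500 bases upstream the ChIP-bisulfite means were 4.04% under the peak, 10.4% outside it and 26.3% at start sites without a peak. Between 1000 and 2000 bases downstream the order was reversed, with 54.4% by ChIP-bisulfite and 57.4% by RRBS at start sites with a peak, and 43.3% and 49.6% at those without. Upstream over the same distance the groups were close, at 34.1% and 39.7% with a peak and 35.8% and 41.2% without.

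**Figure D5:**
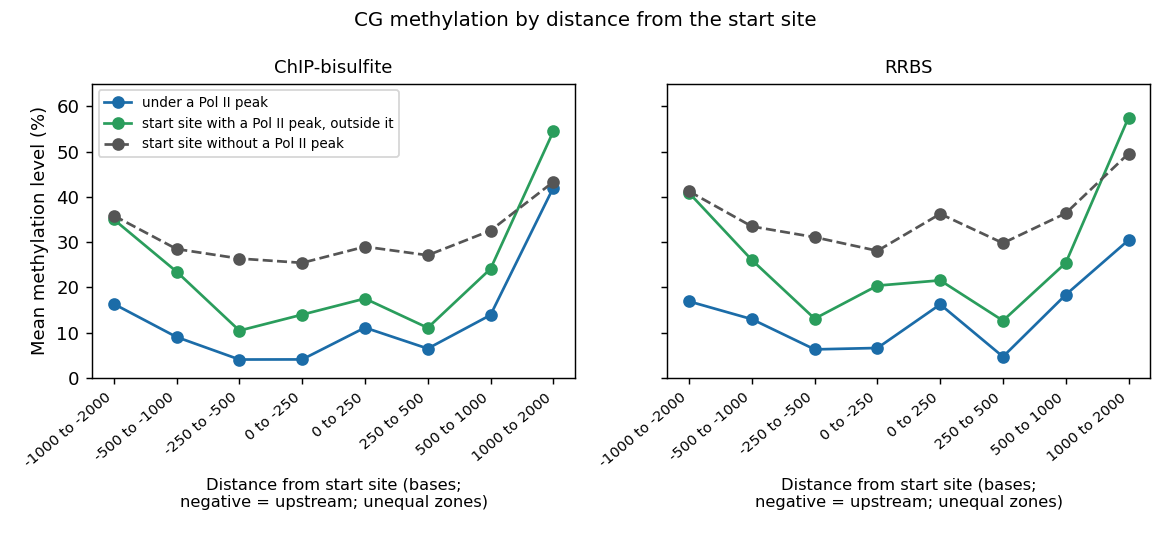
Mean CG methylation (vertical axis, percent) by strand-aware distance from the nearest start site (horizontal axis, zones of unequal width) in ChIP-bisulfite (left) and RRBS (right), for sites under a start-site peak, sites at start sites with a peak but outside it, and sites at start sites without a peak. The order of the lines holds within 1000 bases, and past 1000 bases downstream sites outside the peak lie above those at start sites without one; the last point under a peak holds only 14 sites.

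Methylation under the peak was lowest where the peak was centred 250 to 500 bases upstream. By ChIP-bisulfite and RRBS, sites under those peaks averaged 2.87% and 4.42% (212 sites in 97 peaks). Close to the start site the sides were similar when all sites were counted. Sites under peaks centred 0 to 250 bases upstream averaged 5.55% and 8.74% (499 sites in 165 peaks). Those under peaks centred 0 to 250 bases downstream averaged 5.49% and 9.24% (317 sites in 68 peaks). At 250 to 500 bases downstream such sites averaged 9.16% and 12.4% (100 sites in 27 peaks). Under peaks centred over 750 bases downstream they averaged 34.1% and 37.0% (69 sites in 24 peaks), and under those over 750 bases upstream 13.7% and 15.8% (174 sites in 63 peaks). A single peak weighed on each of these outer classes. Without the peak on scaffold_6 from 3016629 to 3018700, which holds 22 sites, the downstream class averaged 24.98% and 24.4%. Without the peak on scaffold_815 from 2761 to 5081, which holds 19, the upstream class averaged 9.12% and 11.4%. Single peaks weighed on classes nearer the start site too. At 250 to 500 bases downstream, 45 of the 100 sites lay in a peak on scaffold_537. The other 55 averaged 10.3% and 6.38%, which turned the order of the assays. At 0 to 250 bases upstream, 108 of 499 sites lay in a peak on scaffold_927, and the rest averaged 3.74% and 6.81%. At 0 to 250 bases downstream, 87 of 317 lay in a peak on scaffold_13, and the rest averaged 6.65% and 8.73%. By score, the order differed between the formats. In the format with at most 2 decimals, the mean RRBS level of sites was 8.30%, 4.86%, 1.89% and 16.3% from the lowest to the highest class of score, and in the format with more decimals 16.4%, 8.44%, 13.8% and 4.74%. Averaged within peaks first, the levels were 5.17%, 4.41%, 2.62% and 7.82% with at most 2 decimals, and 21.5%, 10.1%, 17.3% and 7.33% with more. Without the sites on scaffold_6 and scaffold_815 the highest class with at most 2 decimals averaged 10.1% over sites. Of the 332 sites then left, 87 lay in a single peak on scaffold_13 and 45 in a single peak on scaffold_537. Of the 281 sites in the lowest class of that format, 54 lay in a single peak on scaffold_927 and 43 in another there. Of the 293 sites in the lowest class with more decimals, 108 lay in a single peak on scaffold_927 and 83 in another there.

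ChIP-bisulfite read lower than RRBS. The mean difference over sites, ChIP-bisulfite minus RRBS, was -2.79 percentage points under start-site peaks, -5.31 points under other peaks and -8.83 points over all sites. Averaged within peaks first, the assays lay closer together under start-site peaks, at 7.62% and 8.85%. Under other peaks that average was 33.3% and 39.1%. Levels near 0 leave little room for a difference. Both assays gave 0% at 892 of 1604 sites under start-site peaks, ChIP-bisulfite was lower at 474 and higher at 217. In the authors' deposited list of differing sites, 18 sites under start-site peaks were lower in ChIP-bisulfite, 1.12% (0.711 to 1.77), where 10.2% of all shared sites were listed. A further 20 were higher, 1.25% (0.809 to 1.92), where 2.93% of all shared sites were listed.

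RRBS covered start-site peaks densely. A C position with at least 10 RRBS reads lay in 51.1% of start-site peaks and in 20.6% of other peaks, and there were 10.96 such positions per 1000 bases of start-site peaks and 2.63 per 1000 bases of other peaks. The reads per position were similar, with a median over peaks of 16 in start-site peaks and 18 in other peaks. A few peaks were far deeper, with medians of up to 1620 reads in start-site peaks and up to 46888 in other peaks. Scaffold_927 held 288 of the 1604 sites in 4 peaks, at a median of 247.5 reads. Without it the mean levels under start-site peaks were 7.52% by ChIP-bisulfite and 10.1% by RRBS.

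Start-site peaks with at least 5 shared sites numbered 52, and a few of these were methylated. The highest RRBS level was on scaffold_6 from 3015589 to 3016035, with 31.7% by ChIP-bisulfite and 67.1% by RRBS over 7 sites (median 261 RRBS reads). Its neighbour on scaffold_6 from 3016629 to 3018700, assigned to the same start site, had 53.6% and 64.0% over 22 sites. A peak on scaffold_815 from 2761 to 5081, the widest start-site peak at 2321 bases, had 51.3% and 51.4% over 19 sites. Those sites had 16 to 5465 RRBS reads. The assays differed most on scaffold_2369 from 1702 to 3054, at 8.44% by ChIP-bisulfite and 62.8% by RRBS over 9 sites, a difference of -54.3 points. The median depth there was only 16 RRBS reads. On scaffold_3088 from 210 to 797 the levels were 22.7% and 54.2% over 6 sites, and from 1733 to 3251 they were 0% and 20.4% over 12 sites. The median depths of these scaffold_3088 peaks were 15 and 18 RRBS reads. The only one of the 5 largest differences in the other direction was on scaffold_61 from 9366886 to 9367362, at 44.5% by ChIP-bisulfite and 13.6% by RRBS over 10 sites (median 13 RRBS reads).

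At the other end, several peaks read 0% at every site in both assays. The one with most sites was on scaffold_108 from 1914611 to 1915389, with 11 sites at a median of 18 RRBS reads. Peaks on scaffold_111 from 3494525 to 3494724 and on scaffold_16 from 2578703 to 2579252 had 8 such sites each. Peaks on scaffold_25 from 7353075 to 7353509 and on scaffold_6 from 57989997 to 57990766 had 7 each. All 5 lay wholly inside an H3K4me1 peak, and 4 of them covered their start site.

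The authors' deposited site table also carries a Pol II PS5 score for each transcript. It was above 0 for 3762 of 4184 transcripts whose start site had a peak within 1000 bases, 89.9% (89.0 to 90.8), and for 3634 of 15927 transcripts without one, 22.8% (22.2 to 23.5). Over all 20111 transcripts the share was 36.8%. Where a transcript had a score and exactly 1 start-site peak was assigned to its start site, the score equalled that peak's in 2406 of 3345 transcripts, 71.9%, within a tolerance of 0.0001. It was lower in 724 and higher in 215.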

How the data were processed

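Peaks, CG sites and start sites were taken from the deposited files. The authors' deposited Pol II PS5 and H3K4me1 peak lists carry a peak score, the RRBS list carries counts of reads per C position (at least 10), and the site table carries methylation in percent for each assay, per the file headers and values. All were pooled over animals by the authors, and library totals are not in the files used here. Tools listed in the submitters' processing notes, with no roles, are HOMER 4.6, MACS2, Bowtie2 2.2.3, Bismark 0.12.5, BSMAP 2.74, methylKit and SAMtools 1.1.

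Each site and start site was used once. Distance was measured from the peak edge, and each peak took the start site nearest to its midpoint. Sites around peaks went to the nearest peak edge, up to 5000 bases. Overlap needed 1 base. Shares carry Wilson intervals. Python 3.11.15, pandas 2.3.3, numpy 2.4.6 and scipy 1.17.1 were used, and the steps were tested on simulated peaks with known answers. Peaks were named by the 10 highest scores, the 5 highest RRBS levels, the 5 lowest levels and the 5 largest assay differences (each with at least 5 sites), and the 3 nearest to each side of the distance limit. The rule's 3 start sites with the most peaks were not singled out, since 13 tied. The members and lists were chosen with earlier results of these data known. Gene lists, cell type markers and sequences were not used here, because the files do not pair gene identifiers with symbols and no genome was used. Alternatives varied the window, distance, scores, overlap and RRBS depth.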

Additional observations from a re-analysis of the deposited data

How the results depend on the processing

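Of 98 recomputed values, 50 stayed within the 95% interval of the reported value (counts of peaks within 1.5 times), 46 moved beyond it and 2 reversed. The 2 were the score ratio of start-site over other peaks, 1.51 over both formats, 0.948 among scores with at most 2 decimals and 0.980 among the rest. These 2 splits by format, the settings without chrM, without scaffold_927, with at most 100 RRBS reads and with no shared CG site within 5000 bases were chosen after seeing the data. The cause of the shifts below was not tested, except that a window or score limit changes which peaks are counted. For mean levels the interval was a Wilson interval that treats the mean percent as a share of sites. For the score ratio it came from the ranks of start-site scores, with the median of other peaks held fixed. Neither measures the spread of these values, so staying or moving is only a rough label for them.

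With a window of 500 bases, 17.2% of start sites had a peak, 55.8% of midpoints lay within 250 bases and the score ratio was 1.59. With 2000 bases these were 25.6%, 36.9% and 1.36, with 26.7% downstream, 92.7% overlapping H3K4me1, and 87.0% (ChIP-bisulfite) and 80.4% (RRBS) of sites at 20% or less. Measured from the midpoint, 19.6% of start sites had a peak and 48.2% of midpoints were within 250 bases. With exactly 1 start site in reach the latter share was 43.8%. For peaks at or above the list's median score, 15.5% of start sites had a peak, 20.1% of midpoints were downstream, 49.9% within 250 bases, 94.96% overlapped H3K4me1, 90.8% and 85.4% of sites were at 20% or less, and mean levels were 6.60% and 9.28%, ChIP-bisulfite first throughout. Overlap with H3K4me1 was 86.3% when at least 50% of the peak had to lie inside 92.1% with its high scale only, and 87.3% for peaks with no shared CG site within 5000 bases. With at least 20 RRBS reads, low shares were 85.8% and 79.95% and levels 9.80% and 13.3%. Averaged within peaks first, RRBS gave 86.3% and a level of 8.85%. With at most 100 reads the RRBS low share was 85.0%.

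Among peaks with at most 2 decimals the count was 2329, 12.5% of start sites had a peak, 17.8% of midpoints were downstream, 52.5% within 250 bases, 95.4% overlapped H3K4me1 and the RRBS low share was 84.6%. With more decimals these were 1785, 9.07%, 33.7%, 36.4%, 92.5% and 79.97%, with 86.6% for ChIP-bisulfite and levels of 9.995% and 12.8%.

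No paired analysis was possible because the deposited values are pooled over the animals, and leaving out an animal could not be run for the same reason. Depth limits the site values: RRBS positions start at 10 reads, and ChIP-bisulfite reads per site are not given in the files used here, so its precision is unknown.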

Other observations

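In the authors' deposited table of averages per H3K4me1 peak, distances are given to start sites called active or inactive. Of 98190 distances to active ones, 98181 ran from the midpoint of a Pol II PS5 peak (within 1 base) and 66 from a listed start site. Of 99970 distances to inactive ones, 89097 ran from a listed start site. The active entries used 3865 Pol II PS5 peaks, of which 3582 were start-site peaks, and their strand equalled that of the nearest start site in 3578. Start-site peaks used there had a median offset of -226.5 bases and none lay more than 500 bases downstream, whereas the 532 not used had a median offset of 401 bases. The 1332 sites under the used peaks averaged 5.81% by ChIP-bisulfite and 8.402% by RRBS, and the 272 under those not used 19.8% and 23.5%. Among the 272 are 22 sites of the scaffold_6 peak from 3016629 to 3018700, at 53.6% and 64.0%. They also include 19 sites of the scaffold_815 peak from 2761 to 5081, at 51.3% and 51.4%. Means without these peaks were not computed. Of 16619 start sites behind the inactive entries, 2230, or 13.4% (12.9 to 13.9), had a Pol II PS5 peak within 1000 bases.

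In the same table only 28212 of 99978 intervals, 28.2%, have the coordinates of a peak in the deposited H3K4me1 list used above, so the intervals were grouped by overlap with Pol II PS5 peaks instead. Intervals overlapping a start-site peak had a mean RRBS level of 35.0% ± 25.1 (SD over 2117 intervals), those overlapping only other Pol II PS5 peaks 56.6% ± 25.6 (8357 intervals), and those overlapping none 65.1% ± 22.7 (89504 intervals). Their median number of C positions per 1000 bases was 47.5, 26.9 and 21.7 in the same order. The part of this density in the levels was not tested.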
